A study of Rattus norvegicus with 38 samples.

Results

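The 37 genes described here encode proteins of the lung's extracellular matrix: collagen chains, elastic fibre proteins, basement membrane proteins, small leucine-rich proteoglycans and secreted proteins that bind this scaffold. They were given as a list of gene symbols grouped by function, and all 37 had a probe set annotated with that 1 symbol, among 14217 genes so measured on the array. By role they fall into 5 interstitial fibrillar collagens, 3 microfibrillar and fibril-associated collagens, 6 basement membrane genes, 10 elastic fibre genes, 6 small leucine-rich proteoglycans and 7 adhesive and matricellular genes. Matrix gene expression was measured in the lungs of female N:NIH rats, 34 weeks old, of the HCR line (selected over generations for a high inborn running capacity) and the LCR line (selected for a low one). In each line, 12 animals breathed cigarette smoke and 7 sham animals breathed room air, on 5 days a week for 12 weeks. Total RNA from about 25 mg of lung of each animal was hybridised to 1 Affymetrix Rat Genome 230 2.0 array, which gives 38 arrays in 4 groups. The animals are the replicates; both lines are selected populations, so a line difference includes every allele that selection or drift has separated. For 1 LCR sham array the labels give no strain or age.

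Fibrillar collagens (types I, III and V) form the tensile cables of the lung, and collagen VI and the fibril-associated collagens XII and XIV link them to cells and to one another. Elastic fibres, which let the lung recoil, consist of cross-linked elastin on a fibrillin scaffold, and need fibulins, microfibril-associated proteins and lysyl oxidases for their assembly. Collagen IV, laminin and nidogen build the basement membranes that epithelium and capillary endothelium share in the alveolar wall. Small leucine-rich proteoglycans coat collagen fibrils and set their diameter, and latent TGF-beta binding proteins store the growth factor TGF-beta in the matrix. Fibroblasts and smooth muscle cells make most of this material. Loss of elastic fibres and thickening of small airway walls are both known from smoke-exposed lungs.

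The alveolar type 2 cell markers, which define lung tissue, had a summed intensity of 33553 to 44644 over the 38 arrays. The median log2(intensity + 16) of all genes lay between 5.92 and 6.06 on every array. The interquartile range of these log2 values was narrower under smoke, at 2.74 to 2.94 against 2.94 to 3.03 under sham in HCR, and at 2.78 to 3.0 against 2.96 to 3.04 in LCR. On some arrays markers of other tissues were high: the heart muscle list (11 genes) summed to 138 to 224 at the lowest array or the median of each group, but reached 13949 on HCR smoke 0415, 19659 on LCR sham 0442 and 4007 on HCR sham 0433. Its mean was also more than 1.5 log2 units above the average array on HCR smoke 0410, 0414 and 0417. Skeletal muscle and fat cell lists were raised on HCR sham 0433, at summed intensities of 17868 and 3098. The difference between 3′ and 5′ probe sets of a transcript rises as RNA is degraded. For Gapdh it was 1.20 log2 units on HCR sham 0432, against at most 0.30 on the other HCR sham arrays, and for Actb 2.06 against at most 0.83. Its median was lower under smoke, at 0.07 against 0.16 in HCR and 0.04 against 0.15 in LCR for Gapdh, and at 0.66 against 0.72 and 0.65 against 0.84 for Actb. These 6 arrays had the most muscle RNA and are called the arrays with muscle RNA below. Calls that end without the 6, or without the 4 of them from HCR smoke, are given below, and the other calls of members passed without them too. Fits without the 6 still held arrays with a raised heart muscle list. Its mean was 1.06 log2 units above the average array on HCR sham 0432, 0.81 on LCR sham 0440 and 0.68 on LCR smoke 0420.

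Changes are differences in the mean of log2(intensity + 16) with their standard error, and a gene passed when its limma p, adjusted over all 14217 genes by Benjamini-Hochberg, was under 0.05. More matrix genes fell than rose under smoke in both lines, which was also so among all genes tested. In HCR, 12 of 37 passed, where 48.0% of all genes tested passed. Of the 37, 11 were lower, a share near the 30.4% of all genes, and 1 was higher, against 17.7%. In LCR, 16 of 37 passed, where 50.6% of all genes passed; 15 were lower, against 27.9%, and 1 was higher, against 22.7%. The median change of the 37 was -0.12 in HCR and -0.21 in LCR, beside -0.03 and -0.0046 over all genes. The members that passed make up 32.4% of the 37 in HCR and 43.2% in LCR, below the share of all genes in both lines, and nearly all of them were lower. With every array's median set equal, the same number passed in HCR (3 higher, 9 lower) and 15 passed in LCR (3 higher, 12 lower). When the interquartile range was added as a covariate, the HCR changes of Col5a1, Col5a2, Eln, Fbln1, Mfap4, Postn and Spon1 no longer passed (adjusted p from 0.0569 to 0.426), nor did the LCR changes of Col4a2, Col5a1, Col6a3, Fbln5 and Fmod (adjusted p from 0.0612 to 0.199). With the mean of the smooth muscle list as a covariate, the LCR changes of Col5a1, Eln, Fbln5, Fbn1, Ltbp1, Mfap5 and Sfrp2 no longer passed (adjusted p from 0.0534 to 0.698). Other members passed only with this covariate, and the count was 15 in LCR (4 higher, 11 lower) and 18 in HCR (4 higher, 14 lower). Among those higher in HCR were Sfrp2 at 0.79, Lum at 0.52 and Tnc at 0.38 (adjusted p = 0.00203, 0.00557 and 0.0161). Both covariates themselves went with exposure, so these fits cannot part them from smoke. The interquartile range was at most 2.935 in HCR smoke and at least 2.938 in HCR sham. Of 16 smooth muscle and pericyte markers, 12 were lower under smoke in LCR.

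**Figure D1:**
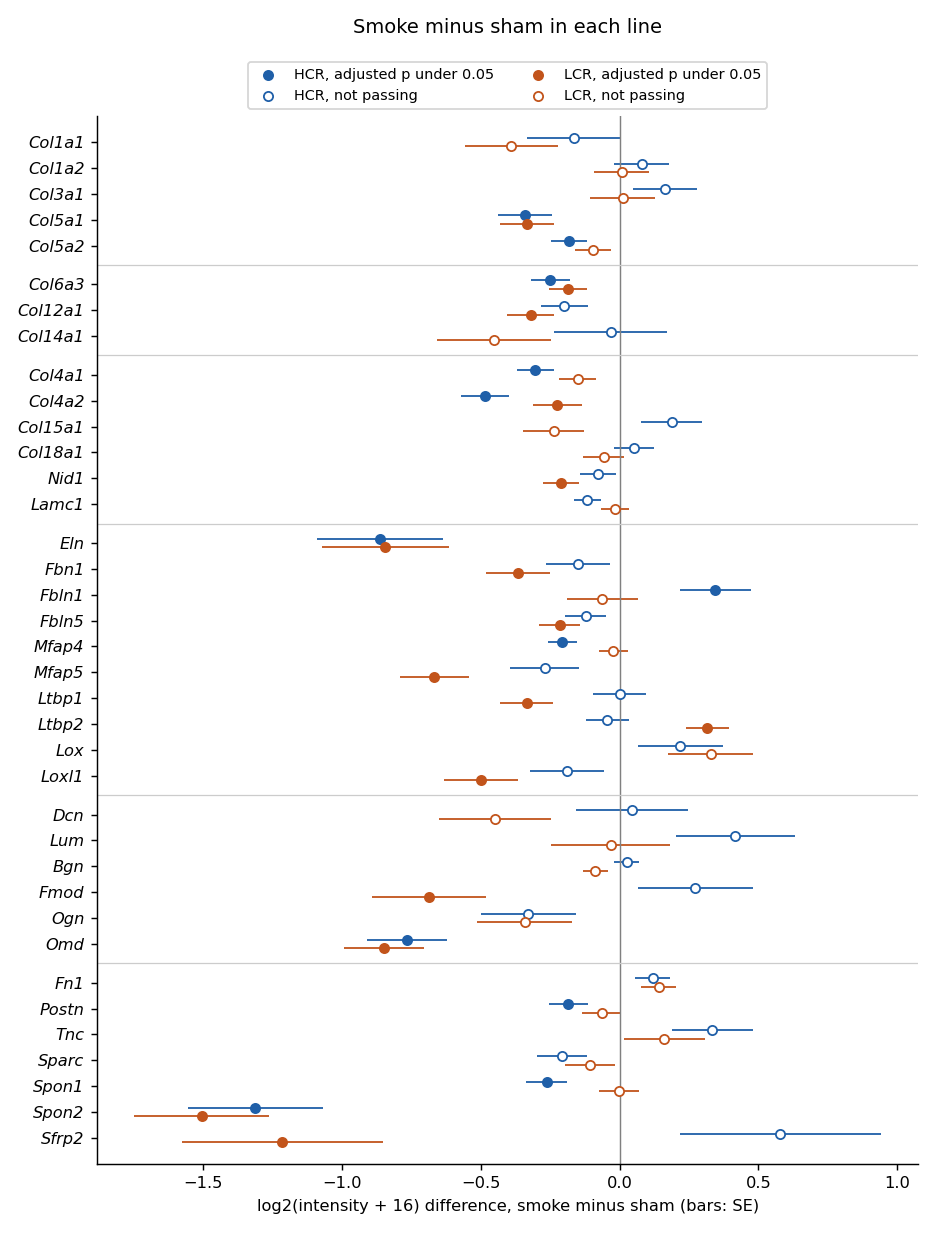
Change under smoke of each of the 37 matrix genes, as the difference in log2(intensity + 16), with bars of 1 SE; blue is HCR and orange LCR (12 smoke and 7 sham arrays each), filled points have an adjusted p under 0.05, and grey lines part the 6 roles. Most filled points lie left of 0, with Spon2 at -1.31 in HCR and -1.51 in LCR; Fbln1 in HCR and Ltbp2 in LCR are the filled points on the right.

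The members lower in both lines numbered 6: Col4a2, Col5a1, Col6a3, Eln, Omd and Spon2. Another 6 passed in HCR alone (Col4a1, Col5a2, Mfap4, Postn and Spon1 lower, Fbln1 higher), and 10 in LCR alone (Col12a1, Fbln5, Fbn1, Fmod, Loxl1, Ltbp1, Mfap5, Nid1 and Sfrp2 lower, Ltbp2 higher). The remaining 15 passed in neither line. No share of all genes is given for these patterns over both lines, so the counts describe the members only. In each line by itself, 30.4% of all genes were lower in HCR and 27.9% in LCR. Some changes that did not pass did so in part of the 55 other fits, which are 17 other settings and 38 arrays left out in turn. In LCR, Col1a1 passed in 20 of them, Col4a1 in 19, Col14a1 in 9 and Lox, with a positive estimate, in 9. In HCR, Lamc1 passed in 14, Col12a1 in 11, Sparc in 10, Mfap5 in 8, and Tnc, with a positive estimate, in 9 of its 54. Passing in 1 line alone does not show that the lines differ. The test of that difference, the interaction of line and smoke, passed for 0 of 37 members, where 1.87% of all genes passed. An unadjusted p under 0.05 in this limma test was found for 10 of 37 members and for 2657 of all 14217 genes. Between the lines, 6 of 37 passed under sham and 3 under smoke, where 3.73% and 6.32% of all genes did. In bulk lung RNA, fewer cells of a type and less RNA per cell cannot be told apart.

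**Figure D2:**
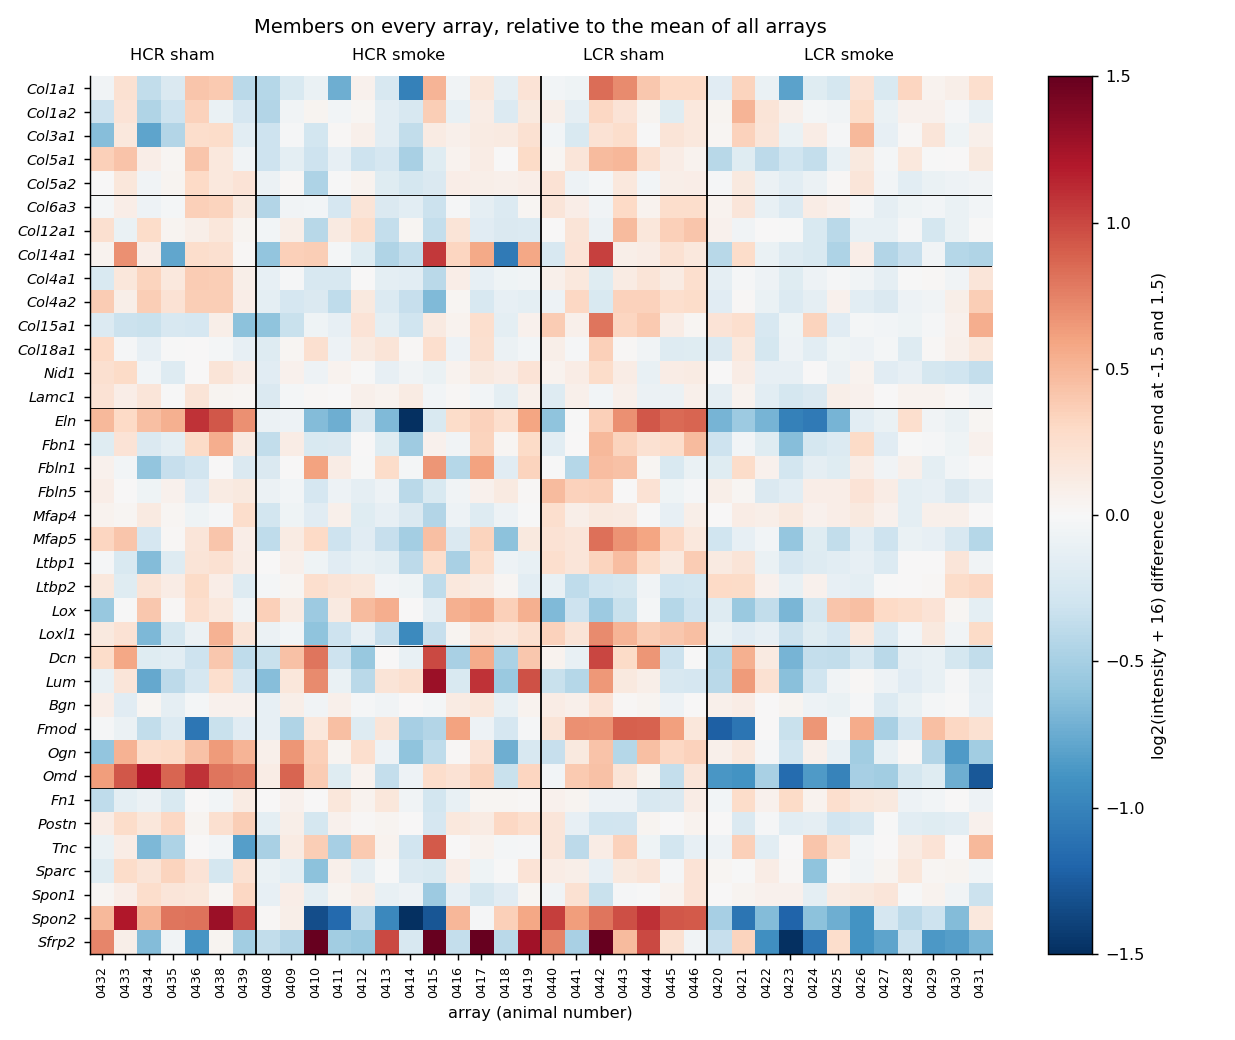
The 37 members (rows, grouped by role between black lines) on all 38 arrays (columns, grouped by line and exposure, named by animal number); colour is log2(intensity + 16) minus that gene's mean over all arrays, red above and blue below. Spon2 and Eln are red on most sham columns and blue on many smoke columns, Omd is reddest in HCR sham and bluest in LCR smoke, and Dcn, Lum, Col14a1 and Sfrp2 vary between animals of 1 group.

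Of the 5 interstitial fibrillar collagens, 2 fell in HCR and 1 in LCR, where 30.4% and 27.9% of all genes were lower. Col5a1, the chain of collagen V that nucleates fibrils, was the member of this role that passed in both lines. Its intensity (lowest, median and highest array) was 186, 217 and 264 in HCR sham and 133, 170.5 and 239.6 in HCR smoke. In LCR it was 197, 221 and 278 under sham and 141, 183 and 217 under smoke. No member's HCR smoke and HCR sham values were wholly apart, where 5.87% of all genes were. Here too the groups overlapped in both lines, with the smoke arrays lower: 11 of 12 HCR and 12 of 12 LCR smoke arrays were below the mean of their sham group. The change was -0.34 ± 0.10 (SE), adjusted p = 0.00413, in HCR, and -0.34 ± 0.10 (SE), adjusted p = 0.00450, in LCR. A second Col5a1 probe set had estimates of 0.0034 in HCR and 0.028 in LCR, so the Col5a1 result holds for 1 of its 2 probe sets.

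Col5a2, its partner chain, read 842, 975 and 1078 in HCR sham and 631, 878 and 938 in HCR smoke, a change of -0.18 ± 0.06 (SE), adjusted p = 0.0200. In LCR the change was -0.10 ± 0.06 (SE), adjusted p = 0.217. Its second probe set fell in both lines, by 0.31 in HCR and by 0.32 in LCR on the log2 scale. With median-centred arrays the HCR change of Col5a2 was -0.14 (adjusted p = 0.0781). The HCR call of Col5a2 was also lost without HCR sham 0436 (adjusted p = 0.0603) and without the 4 HCR smoke arrays with heart muscle RNA (adjusted p = 0.124). It passed under 10 of the 17 other settings. Quantile normalization, array weights, a fit of the groups compared alone and leaving out the 6 arrays with muscle RNA each ended it too.

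The chains of collagens I and III, the bulk of lung fibrillar collagen, did not pass in any comparison. Col1a1 read 305, 396 and 582 in LCR sham and 175, 314 and 406 in LCR smoke, with a change of -0.39 ± 0.17 (SE), adjusted p = 0.0504; in HCR it was -0.17 ± 0.17 (SE), adjusted p = 0.433. Its second probe set fell in LCR, by 0.51 (adjusted p = 0.0204 among all probe sets). Col1a2 had estimates of 0.08 ± 0.10 in HCR and 0.01 ± 0.10 in LCR, and Col3a1 of 0.16 ± 0.12 and 0.01 ± 0.12 (adjusted p from 0.251 to 0.961).

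Among the microfibrillar and fibril-associated collagens, Col6a3, the long chain of collagen VI, read 1172, 1327 and 1589 in HCR sham and 911, 1116 and 1415 in HCR smoke. LCR gave 1196, 1407 and 1523 under sham and 1070.0, 1202 and 1408 under smoke. It fell in both lines with overlapping groups, by 0.25 ± 0.07 in HCR (adjusted p = 0.00330) and by 0.18 ± 0.07 in LCR (adjusted p = 0.0250), on the log2 scale. A second probe set, with a mean intensity of 64.2, gave the opposite sign without passing (0.21 and 0.17). The LCR call was also lost without any 1 of LCR sham 0443, 0445 and 0446 (change -0.17 to -0.16, adjusted p 0.0550 to 0.0646). It did not pass with median-centred arrays either, and passed under 13 of the 17 other settings. Col6a1 and Col6a2, which are further chains of collagen VI, moved the same way in HCR. Col6a1 changed by -0.38 ± 0.06 (adjusted p = 7.57e-06) and Col6a2 by -0.48 ± 0.07 (adjusted p = 1.6e-06). Their LCR changes are not given here.

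Col12a1, a fibril-associated chain, read 356, 438 and 534 in LCR sham and 284, 359 and 399.7 in LCR smoke. It fell in LCR (-0.32 ± 0.09 (SE), adjusted p = 0.00215, with 12 of 12 smoke arrays below the sham mean), and in HCR the change was -0.20 ± 0.09 (SE), adjusted p = 0.0526. The other Col12a1 probe sets, with mean intensities of 12.9 and 29.7, had estimates of 0.025 and -0.024 in LCR. Col14a1 did not pass in the main fit of any comparison (-0.03 ± 0.20 in HCR and -0.45 ± 0.20 in LCR). Its LCR change passed in 9 of the 55 other fits, and a second Col14a1 probe set fell in LCR by 0.48 (adjusted p = 0.0379 among all probe sets).

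In the basement membrane, both chains of the ubiquitous collagen IV network fell in HCR. Col4a2 read 762, 928 and 938 in HCR sham and 446, 615 and 790.0 in HCR smoke. All 12 HCR smoke arrays lay below the sham mean, although the highest of them exceeded the lowest sham array. The change was -0.48 ± 0.09 (SE), adjusted p = 2.59e-05, or 1.40-fold lower (folds here are 2 to the power of the log2 difference, which understates the change of dim genes). In LCR, Col4a2 read 609, 866 and 914 under sham and 611, 671 and 929 under smoke and fell by 0.22 ± 0.09 (adjusted p = 0.0304); this LCR call did not pass without any 1 of LCR sham 0441, 0443, 0444, 0445 and 0446 (change -0.21 to -0.20, adjusted p 0.0581 to 0.0756). It did not pass with the Gapdh or Actb 3′ minus 5′ difference as a covariate either, at -0.18 (adjusted p = 0.0665) and -0.19 (adjusted p = 0.0748), nor with median-centred arrays, at -0.17 (adjusted p = 0.0961).

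Col4a1 read 979, 1291 and 1496 in HCR sham and 866, 1051 and 1227 in HCR smoke, a change of -0.30 ± 0.07 (SE), adjusted p = 0.000298. LCR sham gave 1009, 1254 and 1369 and LCR smoke 1011, 1107 and 1301, a change of -0.15 ± 0.07 (SE), adjusted p = 0.0530. Without LCR sham 0442, whose Col4a1 was the lowest of its group, the LCR change was -0.20 (adjusted p = 0.0113). Col4a1 and Col4a2 are transcribed away from each other, and the part of this position in what follows was not tested. The residuals of both genes from the group means moved together over the 38 animals (Pearson r = 0.67, Spearman rho = 0.71). By permutation within groups, the adjusted p was 0.00015 and 0.0001 over 5 pairs of members. The r was 0.81 without the 2 animals farthest from the median, and 0.87, 0.85 and 0.88 in HCR smoke, LCR sham and LCR smoke, but 0.16 in HCR sham. The stretch between both start sites is shown because the genes share it; it is 76 bases long at chr16:84885521-84885596 of GRCr8 (RefSeq, + strand, which is the sense of Col4a1), and capitals mark a GGGCGG box, the core site of the factor Sp1, which lies on the opposite strand.
Col4a1 and Col4a2: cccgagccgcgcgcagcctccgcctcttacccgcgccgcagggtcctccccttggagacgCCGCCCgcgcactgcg

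Nid1, which ties laminin to collagen IV, read 702, 826 and 923 in LCR sham and 592, 699 and 826 in LCR smoke. It fell in LCR (-0.21 ± 0.06 (SE), adjusted p = 0.00640) with an estimate of -0.08 ± 0.06 in HCR; a second probe set (mean intensity 65.1) had estimates of 0.067 and 0.068. Col15a1, a basement membrane collagen of vessels and muscle, did not pass under smoke, with changes of 0.19 ± 0.11 in HCR and -0.24 ± 0.11 in LCR. Col18a1, the source of endostatin, and the laminin chain Lamc1 passed in no comparison; Lamc1 came nearest in HCR (-0.12 ± 0.05 (SE), adjusted p = 0.0512).

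Of the 10 elastic fibre genes, 7 passed in LCR (6 lower, 1 higher), where 50.6% of all genes did, and 3 in HCR (2 lower, 1 higher), where 48.0% did. The LCR calls of Eln, Fbn1, Fbln5, Mfap5 and Ltbp1 were lost with the mean of the smooth muscle list as a covariate (adjusted p from 0.0534 to 0.259), and those of Loxl1 and Ltbp2 were not. Elastin itself, Eln, fell in both lines. It read 433, 511 and 761 in HCR sham and 113, 313 and 534 in HCR smoke. In LCR it read 225, 570.0 and 678 under sham and 159, 272 and 419 under smoke. HCR smoke 0414 was lowest, and the groups overlapped in both lines: HCR smoke 0417 and 0419 lay above the lowest HCR sham array, and LCR sham 0440 and 0441 lay below the highest LCR smoke array. The mean intensity fell from 562 ± 117 to 319 ± 122 (SD, n = 7 and 12) in HCR and from 509 ± 173 to 271 ± 84.1 in LCR, with changes of -0.86 ± 0.23 (SE), adjusted p = 0.00217, and -0.84 ± 0.23 (SE), adjusted p = 0.00240, by limma. The second Eln probe set fell too, by 0.86 in HCR and by 1.38 in LCR. With the arrays' interquartile range as a covariate the HCR change was -0.58 (adjusted p = 0.159), and with the mean of the smooth muscle list the LCR change was -0.65 (adjusted p = 0.0670).

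**Figure D3:**
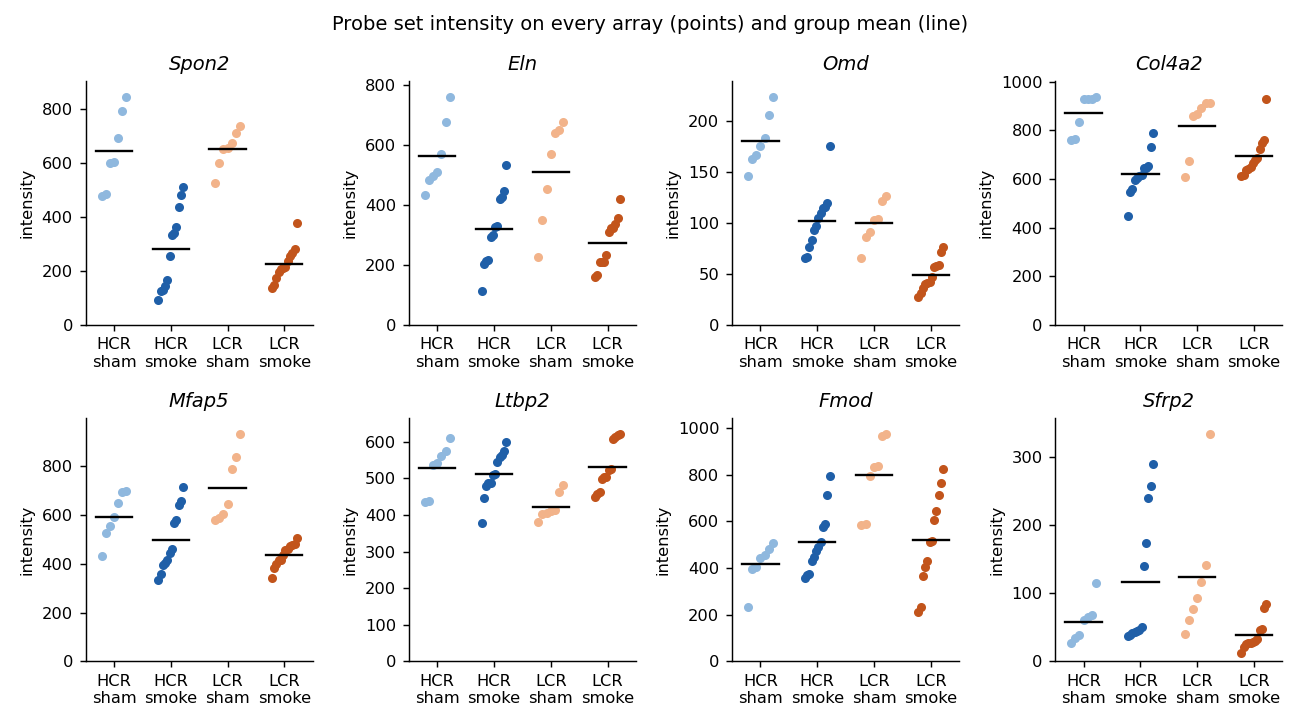
Intensity of 8 members on each of the 38 arrays (points, sorted within a group) with the group mean (black line), for HCR in blue and LCR in orange, sham light and smoke dark; each vertical axis starts at 0. The smoke mean of Spon2 and Omd lies below the sham mean in both lines, with points apart for Spon2 in LCR and overlapping otherwise, LCR sham stands above HCR sham for Fmod, and Sfrp2 is spread widely in HCR smoke.

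Mfap5, a microfibril glycoprotein that binds fibrillin, read 578, 645 and 932 in LCR sham and 341, 446 and 503 in LCR smoke. No LCR smoke array reached the lowest LCR sham array, one of 2 members so separated in LCR (with Spon2), where 14.5% of all genes were. It fell by 0.67 ± 0.12 (adjusted p = 3.46e-05), 1.59-fold. HCR sham gave 431, 592 and 697 and HCR smoke 332, 451 and 714, a change of -0.27 ± 0.12 (SE), adjusted p = 0.0710.

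Loxl1, a lysyl oxidase that cross-links elastin, read 629, 732 and 905 in LCR sham and 436, 507 and 675 in LCR smoke. All 12 LCR smoke arrays were below the sham mean, and the change was -0.50 ± 0.13 (SE), adjusted p = 0.00215. In HCR it was -0.19 ± 0.13 (SE), adjusted p = 0.240. Lox, the founding member of the same enzyme family, passed in neither line, with positive estimates of 0.22 ± 0.15 in HCR and 0.33 ± 0.15 in LCR (adjusted p = 0.240 and 0.0708). With the interquartile range as a covariate Lox passed in both, at 0.55 in HCR and 0.54 in LCR (adjusted p = 0.0251 and 0.00557).

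Fibrillin-1, Fbn1, the backbone of microfibrils, read 374, 507 and 593 in LCR sham and 264, 385 and 514 in LCR smoke, a change of -0.36 ± 0.12 (SE), adjusted p = 0.00852; its second probe set fell by 0.45. In HCR the Fbn1 change was -0.15 ± 0.12 (SE), adjusted p = 0.285. Fbln5, a fibulin needed to lay elastin on microfibrils, read 280.0, 345 and 415 in LCR sham and 251, 284 and 341 in LCR smoke, and fell by 0.22 ± 0.07 (adjusted p = 0.0139). That Fbln5 call was lost without LCR sham 0440 (change -0.17, adjusted p = 0.0574). It was also lost with median-centred arrays and with array weights, and passed under 13 of the 17 other settings.

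The latent TGF-beta binding proteins moved in opposite directions in LCR. Ltbp1 read 336, 369 and 422 in LCR sham and 251, 286 and 349.5 in LCR smoke, a change of -0.34 ± 0.10 (SE), adjusted p = 0.00417. Ltbp2, which does not bind latent TGF-beta itself, rose from 381, 409.7 and 482 to 450.1, 513 and 622 (0.32 ± 0.08 (SE), adjusted p = 0.00101), with 12 of 12 smoke arrays above the sham mean. In HCR neither passed, with changes of -0.00011 ± 0.10 (SE), adjusted p = 0.999, for Ltbp1 and -0.04 ± 0.08 (SE), adjusted p = 0.665, for Ltbp2. Ltbp2 was the single member that rose in LCR, and its call held under each of 17 other settings and with each array left out.

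Mfap4, a microfibril protein of lung and vessel walls, fell slightly in HCR, from 4198, 4488 and 5286 to 3240.4, 3966 and 4624 (-0.21 ± 0.05 (SE), adjusted p = 0.00161); in LCR its change was -0.02 ± 0.05 (SE), adjusted p = 0.733. Fbln1, another fibulin, was the single member that rose in HCR. It read 48.0, 66.9 and 85.2 in HCR sham and 55.7, 84.6 and 137 in HCR smoke (0.35 ± 0.13 (SE), adjusted p = 0.0256), against -0.06 ± 0.13 (SE), adjusted p = 0.702, in LCR. Its HCR change was 0.19 (adjusted p = 0.210) without the 4 HCR smoke arrays with heart muscle RNA. Fbln1 did not pass without any 1 of HCR sham 0434 and 0435 (change 0.28 to 0.32, adjusted p 0.0529 to 0.0827). In a fit of the HCR groups alone it did not pass either, and it passed under 13 of the 17 other settings.

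Of the small leucine-rich proteoglycans, osteomodulin (Omd), a keratan sulfate proteoglycan best known from mineralised tissue, fell in both lines. It read 146, 175 and 223 in HCR sham and 65.8, 101 and 175 in HCR smoke. LCR sham gave 65.5, 103 and 126 and LCR smoke 27.2, 44.4 and 76.1. Smoke arrays were lower in both lines, with 12 of 12 HCR and 12 of 12 LCR smoke arrays below the mean of their sham group, and in each line the highest smoke arrays reached into the sham range. The change was -0.77 ± 0.14 (SE), adjusted p = 4.9e-05, in HCR and -0.85 ± 0.14 (SE), adjusted p = 7.88e-06, in LCR, or 1.70-fold and 1.80-fold lower. Both calls held under each of the 17 other settings and with each array left out.

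Fibromodulin (Fmod), which binds collagen I and guides fibril growth, passed in LCR and not in HCR. It read 584, 834 and 976 in LCR sham and 211, 514 and 824 in LCR smoke, a change of -0.69 ± 0.21 (SE), adjusted p = 0.00581. HCR sham read 234, 444 and 508 and HCR smoke 359, 481 and 792, a change of 0.27 ± 0.21 (SE), adjusted p = 0.280. LCR smoke was the most scattered group for Fmod, from its lowest values on any array to some as high as LCR sham. Decorin (Dcn), lumican (Lum), biglycan (Bgn) and osteoglycin (Ogn) passed in neither line. Ogn was lower by 0.33 ± 0.17 in HCR and 0.34 ± 0.17 in LCR without passing (adjusted p = 0.111 and 0.0936), and Bgn, with the smallest within-group SD of the members, had 0.03 ± 0.04 and -0.09 ± 0.04. Without HCR sham 0432, which had the lowest Ogn of its group and stood apart in the 3′ minus 5′ differences, the HCR change of Ogn was -0.48 (adjusted p = 0.0175). With the Gapdh difference as a covariate the Ogn change was -0.50 (adjusted p = 0.0197) in HCR and -0.43 (adjusted p = 0.0294) in LCR, and with that of Actb it was -0.49 (adjusted p = 0.0232) and -0.46 (adjusted p = 0.0248). Ogn and the asporin gene Aspn flank Omd in the RefSeq gene order, with Ecm2 close by. Of these neighbours Ecm2 fell in both lines (-0.41 ± 0.12, adjusted p = 0.00702, in HCR and -0.64 ± 0.12, adjusted p = 5.98e-05, in LCR), while Aspn passed in neither (0.40 ± 0.18 and -0.32 ± 0.18).

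The stretches of 150 bases before the start sites of Omd, Fmod and Sfrp2 are shown because these members had the largest differences between the lines (given further on). They come from RefSeq on GRCr8, 5′ to 3′ along each gene: Omd at chr17:15274871-15275020 (- strand), Fmod at chr13:48045417-48045566 (+ strand) and Sfrp2 at chr2:171387386-171387535 (+ strand). Capitals mark a match to a searched motif, which only Fmod has in this stretch (a GGGCGG box and the SMAD core CAGAC).
Omd: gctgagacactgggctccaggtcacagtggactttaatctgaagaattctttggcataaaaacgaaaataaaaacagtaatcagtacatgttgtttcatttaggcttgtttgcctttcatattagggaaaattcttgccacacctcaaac
Fmod: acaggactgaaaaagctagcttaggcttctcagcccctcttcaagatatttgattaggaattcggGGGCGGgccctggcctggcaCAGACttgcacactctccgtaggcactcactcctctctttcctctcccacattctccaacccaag
Sfrp2: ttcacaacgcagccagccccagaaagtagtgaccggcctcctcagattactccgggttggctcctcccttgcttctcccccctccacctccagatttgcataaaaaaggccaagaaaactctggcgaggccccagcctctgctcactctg

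RefSeq promoters (250 bases before to 50 after the start) matched 25 of the 37 members. For a number of these, among them Postn, Col5a1, Fbn1 and Ogn, the start used was not the outer end of the gene. On either strand, CAGAC was found in 18 of the 25 and in 50.1% of all 33469 promoters of the same length, GGGCGG in 11 and 33.1%, GCGTG, the core of the aryl hydrocarbon receptor and hypoxia elements, in 11 and 29.7%, CCAAT in 10 and 37.5%, and TATAAA in 4 and 14.2%. The AP-1 site TGACTCA, which reads TGAGTCA on the other strand, was in 0 of 25 and in 4.63% of all. A match is a description of the letters only.

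The adhesive and matricellular genes held the largest change of the 37. Spon2 (spondin 2, or mindin), a secreted protein that binds matrix and bacteria and helps recruit leukocytes, read 479, 604 and 845 in HCR sham and 92.0, 294 and 510.2 in HCR smoke. In LCR it read 527, 655 and 738 under sham and 138, 212 and 377 under smoke. The LCR groups did not overlap; in HCR, 2 of the 12 smoke arrays rose above the lowest sham array. Mean intensity went from 643 ± 142 to 281 ± 149.7 in HCR (SD, n = 7 and 12) and from 651 ± 70.6 to 225 ± 64.9 in LCR. The change was -1.31 ± 0.24 (SE), adjusted p = 4.05e-05, in HCR and -1.51 ± 0.24 (SE), adjusted p = 3.88e-06, in LCR, or 2.49-fold and 2.84-fold lower. It held in every one of the 17 other settings; without the 4 HCR smoke arrays with heart muscle RNA the HCR value was -0.99 (adjusted p = 0.000391).

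Spon1 (F-spondin), a relative of Spon2 in the same family, fell in HCR only modestly, from 1309.7, 1446 and 1595 to 878, 1186 and 1381 (-0.26 ± 0.07 (SE), adjusted p = 0.00343), and in LCR its change was -0.0014 ± 0.07 (SE), adjusted p = 0.989. Periostin (Postn), which binds collagen and integrins, read 1893, 2164 and 2380.3 in HCR sham and 1526, 1899.6 and 2277 in HCR smoke (-0.18 ± 0.07 (SE), adjusted p = 0.0287). In LCR its change was -0.06 ± 0.07 (SE), adjusted p = 0.456. The HCR call of Postn passed under 12 of the 17 other settings, and array weights were among those that ended it. In HCR Postn did not pass without any 1 of HCR sham 0433, 0435 and 0439, HCR smoke 0410 and 0415 (change -0.18 to -0.16, adjusted p 0.0518 to 0.0724), nor without the 4 HCR smoke arrays with heart muscle RNA (adjusted p = 0.164) or with median-centred arrays (adjusted p = 0.106). Fibronectin (Fn1) had estimates of 0.12 ± 0.06 in HCR and 0.14 ± 0.06 in LCR, and tenascin C (Tnc), at intensities of 12.6 to 79.8, had 0.33 ± 0.15 and 0.16 ± 0.15; none passed. Sparc, a collagen-binding glycoprotein, did not pass by the probe set used (-0.21 ± 0.09 in HCR and -0.11 ± 0.09 in LCR), whereas its second probe set fell by 0.32 and by 0.24 (adjusted p = 2.93e-05 and 0.000676 among all probe sets).

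Sfrp2, a secreted antagonist and modulator of Wnt signalling made by fibroblasts, fell in LCR. It read 40.3, 93.6 and 334 in LCR sham and 12.0, 29.0 and 83.5 in LCR smoke, a change of -1.22 ± 0.36 (SE), adjusted p = 0.00564, or 2.32-fold lower. HCR sham read 26.7, 59.9 and 115 and HCR smoke 37.5, 48.0 and 289.7, a change of 0.58 ± 0.36 (SE), adjusted p = 0.188. In HCR smoke, 7 of the 12 arrays lay between 37.5 and 50.6 and the other 5 at 140.3 (0413), 173 (0419), 240 (0410), 257 (0417) and 289.7 (0415). The last 3 are among the arrays with heart muscle RNA, as is LCR sham 0442, which had the highest Sfrp2 of all at 334; HCR smoke 0413 had no raised heart muscle list, and HCR smoke 0414, which did, had an Sfrp2 of 50.6. The LCR change was -0.95 (adjusted p = 0.00706) without the 6 arrays with muscle RNA, and 0.14 (adjusted p = 0.698) with the smooth muscle list as a covariate. With that covariate the HCR change of Sfrp2 was 0.79 (adjusted p = 0.00203). A second Sfrp2 probe set (mean intensity 39.4) fell in LCR as well, by 0.68 (adjusted p = 0.0242).

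**Figure D4:**
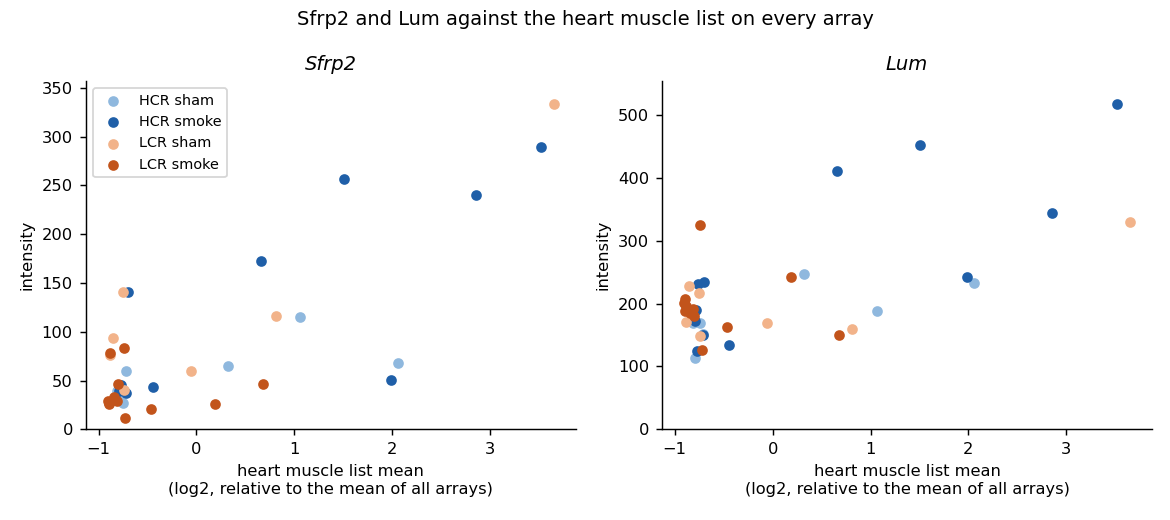
Intensity of Sfrp2 and Lum (vertical axes, from 0) on each of the 38 arrays against the mean of the heart muscle list on that array (horizontal axis, log2 relative to the average array), coloured by group. Several of the arrays with the most heart muscle RNA are also among the highest for Sfrp2 and Lum, such as HCR smoke 0415 and LCR sham 0442, and some high Sfrp2 arrays lie at the left edge.

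Between the lines, 16.2% of the members differed under sham and 8.11% under smoke, where 3.73% and 6.32% of all genes did. The sham count fell from 6 to 3 without any 1 of HCR sham 0434 and 0435 and LCR sham 0441, 0442, 0443 and 0445. Under sham, 3 members were higher in LCR (Col15a1, Fmod and Ltbp1), where 1.39% of all genes were, and 3 lower (Ltbp2, Omd and Postn), where 2.34% were. Under smoke, Mfap4 was higher in LCR, where 4.61% of all genes were, and Omd and Sfrp2 were lower, where 1.7% were. Only Omd passed under both exposures. The lines did not overlap for 2 members under sham, Fmod and Omd, where 0.858% of all genes were so separated, and for none under smoke (0.0844% of all genes).

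**Figure D5:**
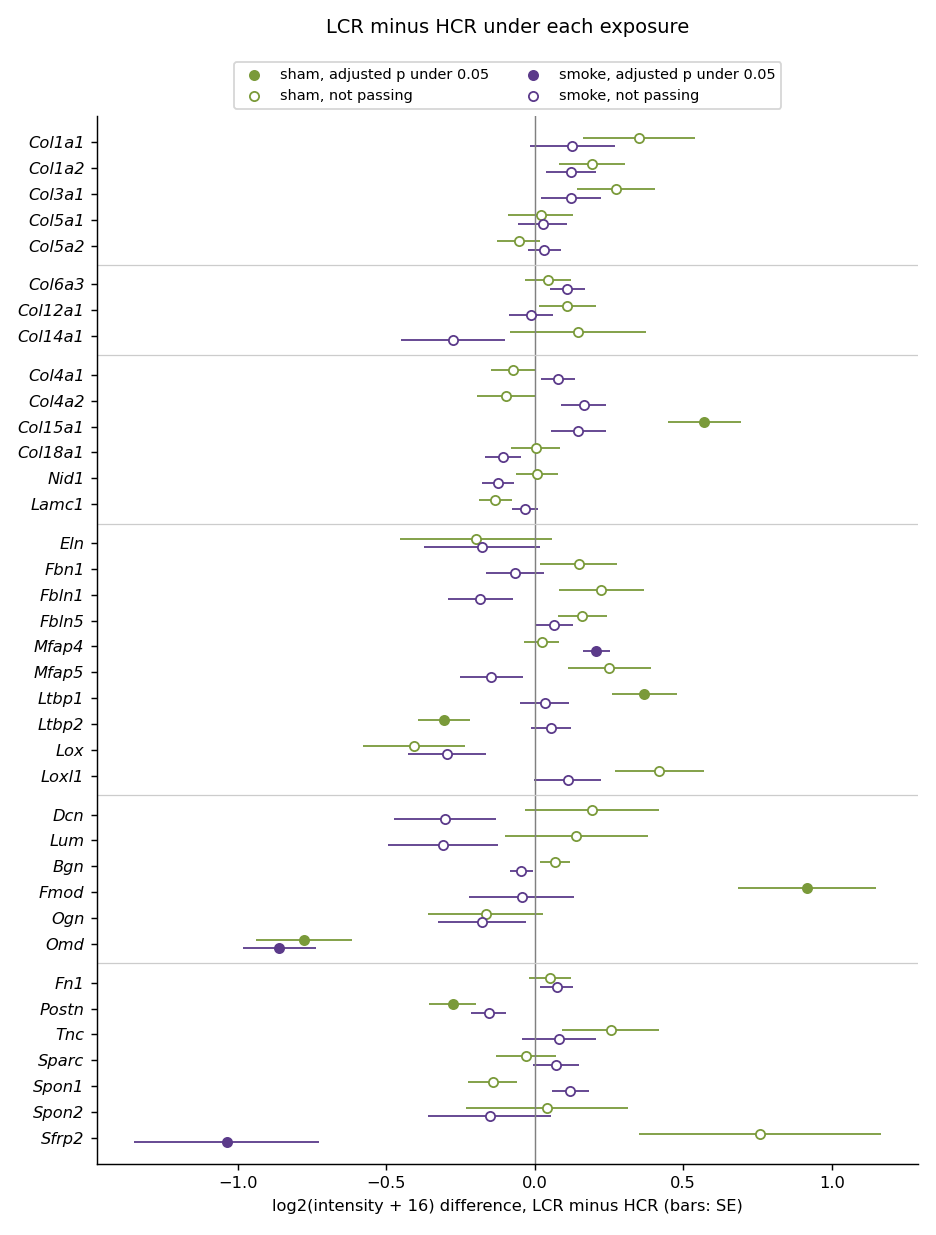
Difference between the lines, LCR minus HCR, for each of the 37 members in log2(intensity + 16) with bars of 1 SE; green is sham (7 arrays a line), purple is smoke (12 a line), and filled points have an adjusted p under 0.05. Omd is filled at about the same place in both exposures (-0.78 and -0.86); Fmod and Col15a1 are filled under sham and lie near 0 or lower under smoke.

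Every LCR sham array had less Omd than every HCR sham array, by the values given above, and the difference was -0.78 ± 0.16 (SE), adjusted p = 0.00432. Under smoke it was -0.86 ± 0.12 (SE), adjusted p = 3.77e-05, with 12 of 12 LCR arrays below the HCR mean. The interaction of line and smoke for Omd was -0.08 ± 0.20 (SE), adjusted p = 0.863. Fmod showed the reverse order under sham: each LCR array was above every HCR array (0.92 ± 0.23 (SE), adjusted p = 0.0179, 1.89-fold), whereas under smoke the difference was -0.04 ± 0.18 (SE), adjusted p = 0.902. Without HCR sham 0436, the lowest Fmod of its group, the sham difference was 0.79 (adjusted p = 0.0597).

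Col15a1 read 190.2, 249.6 and 319 in HCR sham and 305, 377 and 533 in LCR sham, a difference of 0.57 ± 0.12 (SE), adjusted p = 0.00565, or 1.49-fold. Under smoke it was 0.15 ± 0.09 (SE), adjusted p = 0.341. For Postn, LCR sham read 1494, 1847 and 2086, and the difference from HCR sham was -0.28 ± 0.08 (SE), adjusted p = 0.0389; it did not pass without any 1 of HCR sham 0433, 0434, 0435, 0438 and 0439, LCR sham 0441, 0442, 0443 and 0445 (change -0.29 to -0.24, adjusted p 0.0517 to 0.108), nor without the 6 arrays with muscle markers (adjusted p = 0.0954). The Ltbp1 difference was 0.37 ± 0.11 (SE), adjusted p = 0.0457; it did not pass without any 1 of HCR sham 0433, 0434 and 0435, HCR smoke 0408, 0411, 0413 and 0418, LCR sham 0440, 0441, 0442, 0443, 0444, 0445 and 0446, LCR smoke 0422, 0426, 0428, 0429 and 0431 (change 0.27 to 0.39, adjusted p 0.05 to 0.149), nor without those 6 (adjusted p = 0.0945). For Ltbp2 it was -0.31 ± 0.09 (SE), adjusted p = 0.0396; it did not pass without any 1 of HCR sham 0432, 0434, 0435, 0436 and 0438, LCR sham 0441, 0442, 0443, 0445 and 0446 (change -0.30 to -0.27, adjusted p 0.0527 to 0.105), nor with the Gapdh 3′ minus 5′ covariate (adjusted p = 0.0593). In a fit of the sham groups alone, none of the differences of Postn, Ltbp1 and Ltbp2 passed (adjusted p from 0.0674 to 0.126). The sham differences of Omd and Col15a1, by contrast, passed with each array left out.

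Under smoke, Mfap4 read 3973, 4630.4 and 4885 in LCR and 3240.4, 3966 and 4624 in HCR (0.21 ± 0.05 (SE), adjusted p = 0.00500); without the 4 HCR smoke arrays with heart muscle RNA the difference was 0.15 (adjusted p = 0.0608). Sfrp2 differed by -1.04 ± 0.31 (SE), adjusted p = 0.0397, and by -0.59 (adjusted p = 0.266) without those 4; the Sfrp2 difference did not pass without any 1 of HCR smoke 0410, 0413, 0415, 0417 and 0419, LCR smoke 0423, 0424, 0426, 0427, 0429, 0430 and 0431 (change -1.03 to -0.90, adjusted p 0.0513 to 0.0766). It passed under 10 of the 17 other settings, and was -0.59 (adjusted p = 0.158) with the heart muscle list as a covariate and -0.36 (adjusted p = 0.259) with the smooth muscle list. Nor did it pass with the interquartile range as a covariate, a pseudocount of 64 or a fit of the groups compared alone (adjusted p = 0.0944, 0.0544 and 0.0544). The interaction came nearest to passing for Sfrp2 (-1.80 ± 0.51 (SE), adjusted p = 0.0548), Fmod (-0.96 ± 0.29 (SE), adjusted p = 0.0674) and Ltbp2 (0.36 ± 0.11 (SE), adjusted p = 0.0696). For Sfrp2 it was -1.13 (adjusted p = 0.186) without the 6 arrays with muscle RNA.

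How much a member varied between animals of 1 group differed widely. The within-group SD of log2(intensity + 16) had a median of 0.21 over the 37 members and 0.12 over all 14217 genes. It was lowest for Bgn (0.09) and highest for Sfrp2 (0.79), Spon2 (0.53) and Eln (0.49). In HCR smoke the SD of Spon2 was 0.80, against 0.31 in HCR sham, and that of Lum 0.65 against 0.35. Lum, Dcn and Col14a1 were each highest in HCR smoke on array 0415, and LCR sham 0442 was the highest of its group for all 3. The residuals of Col1a1 and Col1a2, the chains of collagen I, moved together over the 38 animals (Pearson r = 0.63, Spearman rho = 0.66; permutation within groups, adjusted p = 0.000225 for each over 5 pairs; r = 0.69 without the 2 farthest animals), with 0.82 and 0.72 within sham and smoke in HCR and 0.69 and 0.34 in LCR. For Col5a1 with Col5a2 the pooled r was 0.36 (rho = 0.32; permutation adjusted p = 0.0702 and 0.08; r = 0.26 without the 2 farthest), with 0.28 and 0.70 within sham and smoke in HCR and -0.25 and 0.16 in LCR. For Ogn with Omd it was 0.32 (rho = 0.26; permutation adjusted p = 0.08 and 0.167; r = 0.21), with 0.43 and 0.65 in HCR and 0.06 and 0.02 in LCR. For Eln with Fbln5 it was -0.01 (rho = -0.05; permutation adjusted p = 0.964 and 0.881; r = -0.07), but -0.24 and 0.81 within sham and smoke in HCR and -0.83 and -0.20 in LCR. The pooled value of this last pair therefore stands for groups of opposite sign, and the difference between the groups was not tested.

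Genes of the same pathways beyond the 37 also changed, in both directions. Of 26 other collagen chains, 3 were higher and 6 lower in HCR, and 3 higher and 9 lower in LCR; Col4a4 fell in HCR (-0.51 ± 0.09, adjusted p = 1.35e-05), and in LCR Col8a2 fell (-0.62 ± 0.11, adjusted p = 1.44e-05) and Col16a1 rose (0.56 ± 0.10, adjusted p = 2.22e-05). Of 19 enzymes that process procollagen, 2 were higher and 5 lower in HCR, and 7 higher and 5 lower in LCR. Colgalt2, which adds galactose to collagen, fell by 0.75 ± 0.11 in HCR and by 0.97 ± 0.11 in LCR (adjusted p = 1.08e-06 and 4.78e-09). P4hb, a subunit of prolyl 4-hydroxylase and a general protein disulfide isomerase, rose by 0.21 ± 0.03 and 0.27 ± 0.03 (adjusted p = 5.86e-06 and 5.55e-08).

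Of 16 other elastic fibre genes, 2 were higher and 6 lower in HCR, and 3 higher and 7 lower in LCR. Emilin1, which sits between elastin and microfibrils, fell in both (-0.55 ± 0.09, adjusted p = 5.02e-06; -0.51 ± 0.09, adjusted p = 9.67e-06), and its relative Emilin2 rose in LCR (1.24 ± 0.17, adjusted p = 1.94e-07). Among 18 other basement membrane genes, 1 was higher and 8 lower in HCR, and 3 higher and 8 lower in LCR. Pxdn, the peroxidase that forms sulfilimine cross-links in collagen IV, fell in both lines (-0.47 ± 0.06 and -0.48 ± 0.06; adjusted p = 4.58e-08 and 1.26e-08). Of 33 other proteoglycans and matricellular genes, 9 were higher and 9 lower in HCR, and 6 higher and 9 lower in LCR. Fstl1, a secreted follistatin-like protein, fell in both (-0.38 ± 0.06 and -0.59 ± 0.06; adjusted p = 1.16e-05 and 3.86e-09), and osteopontin (Spp1), which macrophages make, rose in LCR (1.94 ± 0.31, adjusted p = 3.01e-06). The share of these lists that passed lay between 34.6% and 63.2%, around the 48.0% and 50.6% of all genes.

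Markers of the cells that make or border this matrix moved with smoke too, where 48.0% of all genes passed in HCR and 50.6% in LCR. The part of these markers in the changes above was tested only where a covariate is named. Of 14 fibroblast markers (Mfap4 is on both lists), 6 were lower and 1 higher in HCR, and 7 lower and 1 higher in LCR; Pdgfra changed by -0.53 ± 0.08 and -0.53 ± 0.08 (adjusted p = 1.52e-06 and 8.71e-07). Their summed intensity was 11489 to 14989 in HCR sham, 8795 to 11825 in HCR smoke, 11431 to 13621 in LCR sham and 8698 to 10488 in LCR smoke. Of 16 smooth muscle and pericyte markers, 6 were lower in HCR and 12 in LCR, none higher, with sums of 6314 to 9152, 4727 to 12651, 7380 to 14134 and 4178 to 7179 in the same order. The pericyte receptor Pdgfrb fell by 0.74 ± 0.07 in HCR and by 0.86 ± 0.07 in LCR (adjusted p = 3.27e-09 and 3.31e-11).

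Of 13 endothelial markers, 10 were lower in HCR and 11 in LCR (sums of 24229 to 28226, 17502 to 23070, 23715 to 29415 and 17984 to 21575). Of 8 alveolar type 1 markers, 8 and 7 were lower (22595 to 26579, 17093 to 22963, 21339 to 25349 and 19151 to 22802). Macrophage markers went the other way, with 6 of 10 higher in HCR and 7 of 10 in LCR (3 and 2 lower), and sums of 4038 to 5814, 5799 to 10660, 3163 to 5020 and 8264 to 11786. Alveolar type 2 markers were higher for 3 of 9 in HCR (1 lower) and for 6 of 9 in LCR. Of 7 mesothelial markers 1 was lower in HCR and none passed in LCR, with sums of 1704 to 4759 over all arrays. Cartilage markers, of which 4 of 9 were higher in HCR and 2 in LCR, summed to only 75.6 to 116. Heart muscle markers passed in neither line, 1 of 11 skeletal muscle markers was lower in HCR and none passed in LCR, and 1 of 9 fat cell markers was lower in each line. No marker was at 0 on any array.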

How the data were processed

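Each of the 38 arrays gave 1 value for each of 31099 probe sets. The deposited values are linear-scale intensities summarised per probe set by the authors (software for summarising and normalizing: not given in the sources used here). After 57 control probe sets were left out, the platform annotation gave 1 gene symbol to 20826 probe sets, several to 436 and none to 9780. The gene IDs of 20758 matched the RefSeq table. For a gene with several probe sets, the set with the highest mean intensity over all arrays stood for it, which left 14217 genes.

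Values were taken as log2(intensity + 16). limma 3.58.1 (R 4.3.3) fitted the 4 group means to all 38 arrays, with 34 residual degrees of freedom and moderated variances, and the Benjamini-Hochberg adjustment ran over all 14217 genes in each of 5 comparisons: smoke against sham in each line, LCR against HCR under each exposure, and the interaction. The threshold was 0.05. Arrays correlated at 0.958 to 0.997, and no 2 arrays shared over 0.0611% of their values, so none was counted as a repeat. The number of arrays limits the precision. Pairs of members were correlated over residuals from the group means with 100000 permutations within groups (SciPy 1.17.1). The fit was tested on simulated data with independent noise for each gene and few changed genes. That test does not cover differences shared by whole arrays or changes in a large share of genes.

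Named are the members that passed in any comparison, with the values of the others summarised, and the 3 genes of each related list with the smallest p that passed in each comparison, likewise for the cell type lists, of which only some are given. Aspn and Ecm2 were chosen after their values were seen, for their place near Omd. The members and all lists were chosen with earlier results of these data known. The alternatives covered pseudocount, normalization, probe set choice, low-intensity filter, variance model, array weights, RNA quality, interquartile range and tissue covariates, and left-out arrays. Fits of each further probe set of a member were added after seeing the data. Protein sequences were not analysed here.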

Additional observations from a re-analysis of the deposited data

Results flagged for a closer look

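In a sham group of 7, an array was flagged when its gap to the nearest other array exceeded 0.568 of the group's range. Of 74 combinations of member and sham group, 5 were flagged, where chance flags about 5% of groups. Of these 5, 4 lie on 2 arrays. LCR sham 0442, the lung with the most heart muscle RNA, had the lowest Col4a1 of its group, at an intensity of 1009 against 1210 to 1369 on the others, and the highest Col14a1, at 375 against 147 to 209. HCR sham 0432 had the highest Col18a1 of its group, at 152 against 109 to 120.4, and the lowest Ogn, at 598 against 1102 to 1432. This array also had the largest 3′ minus 5′ differences of all 38, at 1.20 log2 units for Gapdh and 2.06 for Actb, and their part in these 2 values was not tested. HCR sham 0436 had the lowest Fmod of its group, at 234 against 394 to 508.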

How the results depend on the processing

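Of the 37 calls made over the 5 comparisons, 11 passed under all 17 alternatives and with each of 38 arrays left out in turn, and 26 passed with each array left out. No paired analysis was possible because the groups share no replicate numbers. Leaving out 1 array gave 11 to 15 members called for smoke in HCR, 15 to 20 for smoke in LCR, 3 to 6 between the lines under sham, 2 to 3 under smoke and 0 to 2 for the interaction. The sham count was 3 without HCR sham 0434 or 0435 or LCR sham 0441, 0442, 0443 or 0445. The interaction count was 2 without HCR sham 0432, and 1 without HCR sham 0433 or 0439, HCR smoke 0411, 0412 or 0418, or LCR smoke 0420 or 0421. With the interquartile range of the arrays as a covariate, 7 members passed in HCR in place of 12, 5 lower and 2 higher. The 2 higher were Fmod and Lox, which did not pass in HCR in the main fit. A fit of only the groups of the contrast gave 3 sham line calls in place of 6, and array weights gave 5 smoke line calls in place of 3. The interaction, with 0 calls, had 3 with median-centred arrays, 3 with array weights, 2 with either the Gapdh or the Actb 3′ minus 5′ covariate, 1 with the interquartile range covariate, and 1 among genes with a mean intensity of at least 50, a filter that left 36 members by dropping Tnc. With the most variable probe set, Col6a3 was 0.21 in HCR and 0.17 in LCR and Nid1 0.068 in LCR, each positive where the probe set used was negative. Fits of the other probe sets, added after seeing the data, gave those same values, and also turned Col5a1 to 0.0034 in HCR and 0.028 in LCR and 1 Col12a1 probe set to 0.025 in LCR. With the smooth muscle list as a covariate, the LCR estimates of Fbln1, Lum and Sfrp2 became 0.33, 0.65 and 0.14, of which the first pair passed (adjusted p = 0.0274 and 0.00709) and that of Sfrp2, negative and past the threshold without the covariate, did not (adjusted p = 0.698). The cause was not tested for any of these. Probe sets limit the result too: of called members with several probe sets, all others had the same sign for 4 of 6 in HCR and 3 of 7 in LCR.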
